A study of Mus musculus with 23 samples.

Results

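The genes described here encode 10 matrix proteins that are not collagens: tenascin C (Tnc), fibronectin (Fn1), the thrombospondins Thbs1 and Thbs2, Sparc, osteopontin (Spp1), versican (Vcan), biglycan (Bgn), fibrillin 1 (Fbn1) and lysyl oxidase (Lox). They were taken by name from a count table of 56748 mouse genes, each of the 10 names occurred once, and all 10 passed the filter on low counts in both routes of treatment. The tumors were grown under the skin of DBA/2J mice aged 6 to 8 weeks from B16-F1, a mouse melanoma cell line derived from another inbred strain, C57BL/6. All 8 groups therefore share the same line, host strain and site, and differ in drug and in route.

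Drugs were given into the peritoneal cavity (IP, 8 tumors) or into the tumor (IT, 15 tumors). CONTROL_IP mice received saline and CONTROL_IT mice received DMSO. PTX is pentoxifylline, a methylxanthine that inhibits phosphodiesterases, at 60 mg/kg. NCTD is norcantharidin, a demethylated cantharidin that inhibits protein phosphatases, at 3 mg/kg, and MIX is both drugs at those doses. Each IP group held 2 tumors, PTX_IT held 3, and CONTROL_IT, NCTD_IT and MIX_IT held 4 each. Tumors are named by their group and their own number, as in NCTD_IT 18.

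Matrix glycoproteins are secreted and built into the meshwork around cells, where they bind integrins, growth factors and each other. Tenascin C, thrombospondins, Sparc and osteopontin are called matricellular proteins: they modulate adhesion rather than bear load, are sparse in most adult tissue and are made in wounds and tumors. Fibronectin and fibrillin 1 form fibrils, versican and biglycan carry chondroitin or dermatan sulfate chains, and lysyl oxidase cross-links collagen and elastin. In a solid tumor much of this matrix comes from fibroblasts, while melanoma cells, macrophages and endothelial cells make some of it too. In RNA from whole tumors, fewer cells of a type and less RNA per cell cannot be told apart.

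The counts summed to 2861578 in the shallowest tumor and 6702374 in the deepest. Levels are given in CPM, counts scaled to a common library size with TMM factors, and were compared between tumors and not between genes. The 7 melanocyte markers checked summed to 15319 to 37163 CPM per tumor, so the labelled tissue carried its defining RNA. The labels name the route itself as the batch, so route, vehicle and batch cannot be told apart. Xist, transcribed from the inactive X chromosome of females, was 1.28 to 13.6 CPM in PTX_IT and NCTD_IT and at most 0.566 CPM in CONTROL_IT and MIX_IT. Ddx3y, on the Y chromosome, was at most 0.294 CPM in PTX_IT and NCTD_IT and 1.03 to 15.5 CPM in CONTROL_IT and MIX_IT. Sex-linked RNA therefore cannot be told apart from PTX or NCTD in the IT comparisons with CONTROL_IT, nor from the differences between MIX_IT and NCTD_IT or PTX_IT, whereas MIX_IT and CONTROL_IT had the same pattern. In the IP groups CONTROL_IP 2 was the tumor with Xist, at 8.26 CPM. NCTD_IT 18 stood apart by 1093 CPM of neutrophil markers, against 2.26 to 46.3 CPM in the other IT tumors, and MIX_IT 23 by the lowest melanocyte sum, 15319 CPM.

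PTX, NCTD and MIX were each set against the same-route control in edgeR's quasi-likelihood model of the 4 IT or 4 IP groups, with p-values adjusted over all 12480 genes tested in IT or 12424 in IP tumors. In NCTD_IT 1 of the 10 genes passed an adjusted p below 0.05, Tnc, which was higher, against a background of 1.37% of all genes. At an unadjusted p below 0.05 there were 5, all higher (Tnc, Thbs2, Thbs1, Spp1 and Fn1), against 21.6% of all genes in either direction and 11.6% higher. In MIX_IT 0 of 10 passed the adjusted threshold, as did 0% of all genes, and 6 were higher at an unadjusted p below 0.05 (Tnc, Thbs2, Bgn, Fn1, Fbn1 and Lox) against 13% in either direction and 7.88% higher. DESeq2, fitted to the 2 groups compared alone, called 3 in MIX_IT (Tnc, Fn1 and Bgn) and 2 in NCTD_IT (Tnc and Thbs2). It gave no adjusted p for Thbs2 or Vcan in MIX_IT. The share of all genes passing in DESeq2 was not computed in any comparison, so the edgeR shares are no background for its counts. In PTX_IT 0 of 10 passed, as did 0% of all genes, with 1 at an unadjusted p below 0.05, Tnc, against 6.35%, and DESeq2 called 0. The median log2 change of the 10 genes was 0.57 in PTX_IT, 1.20 in NCTD_IT and 1.51 in MIX_IT. The medians over all genes tested were 0.02, 0.03 and 0.01. Because the 10 genes were chosen with earlier results of these data known, setting them against all genes is descriptive and not an independent test.

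The tumors of a treated group and of CONTROL_IT did not overlap at all for 3 genes in NCTD_IT (Tnc, Fn1 and Thbs2), against 16.8% of all genes. In MIX_IT this held for 7 (Tnc, Fn1, Thbs2, Spp1, Bgn, Fbn1 and Lox), against 9.91%. In PTX_IT it held for 0, against 7.96%. Without PTX_IT 16 it held for 5, but fewer tumors are then left to overlap and the share of all genes was not computed there. The 3 and 7 genes without overlap were all higher in the treated tumors.

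**Figure D1:**
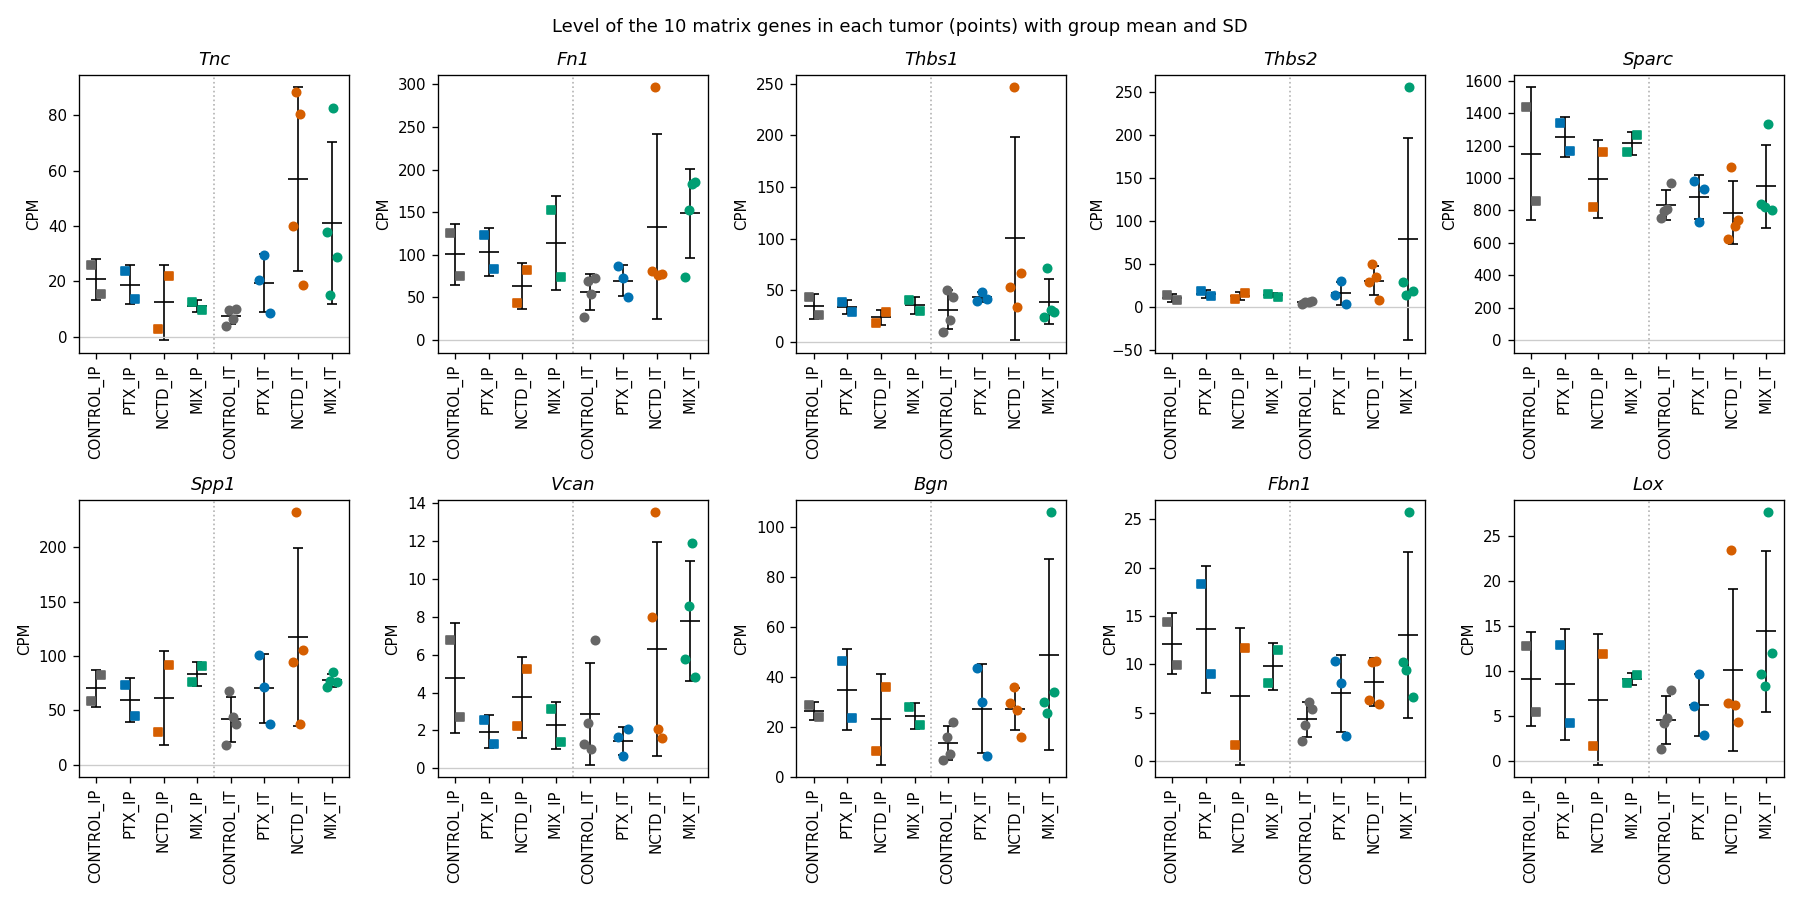
Level of each of the 10 genes in CPM (linear axes, 1 panel a gene) in every tumor of the 8 groups, squares for IP and circles for IT, with the group mean as a bar and the SD between tumors as the whisker. Tnc sits between 3.86 and 9.90 CPM in the 4 CONTROL_IT tumors and between 18.7 and 88.4 CPM in the 4 NCTD_IT tumors.

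Tenascin C, a hexameric glycoprotein of wounds and tumor stroma (Tnc, ENSMUSG00000028364, GRCm39 chr4:63878022-63965252, minus strand, protein coding), was the gene called in NCTD_IT. In CONTROL_IT it was at 3.86, 9.64, 6.30 and 9.90 CPM, and in NCTD_IT at 40.0, 88.4, 80.6 and 18.7 CPM. The lowest NCTD_IT tumor, NCTD_IT 20, was above every control tumor. The means were 7.43 ± 2.89 CPM (SD, n = 4) and 56.9 ± 33.2 CPM (SD, n = 4), and the log2 change was 2.93 (SE 0.575, edgeR adjusted p = 0.0301).

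The Tnc call in NCTD_IT rested on a narrow margin. It was lost when any of CONTROL_IT 9, CONTROL_IT 11, CONTROL_IT 12, NCTD_IT 17, NCTD_IT 18 or NCTD_IT 19 was left out, with adjusted p between 0.0501 and 0.117, and held without CONTROL_IT 10 or NCTD_IT 20 (edgeR adjusted p = 0.0442 and 0.0296). The Tnc log2 change in those 8 fits ranged from 2.64 to 3.22. Over all 16 alternatives the edgeR or DESeq2 adjusted p for Tnc ranged from 5.87e-20, without a filter on low counts, to 0.970, with the fibroblast markers described further on as a covariate, and 8 were below 0.05.

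In MIX_IT Tnc was at 37.9, 15.1, 82.8 and 28.6 CPM, again above every CONTROL_IT tumor. The log2 change was 2.45 (SE 0.568, edgeR adjusted p = 0.122) and 1.85 without MIX_IT 23. In PTX_IT Tnc was at 20.3, 29.6 and 8.73 CPM, so that PTX_IT 16 lay within the controls. There the Tnc log2 change was 1.38 (SE 0.603, edgeR adjusted p = 0.785). The order of the IT means was NCTD_IT, MIX_IT, PTX_IT and CONTROL_IT, and the tumors of each neighbouring pair in that order overlapped.

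By the IP route no treated tumor exceeded the higher CONTROL_IP tumor for Tnc. It was at 26.0 and 15.5 CPM in CONTROL_IP, 23.8 and 13.8 CPM in PTX_IP, 2.80 and 21.96 CPM in NCTD_IP, and 12.5 and 9.54 CPM in MIX_IP. The 2 CONTROL_IP tumors thus lay above all 4 CONTROL_IT tumors.

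Tnc moved across tumors with Thbs2. Stretches of their promoters are shown because each holds a TATAAA match, on opposite strands, whose upstream edge is equally far from the start site. Any part of these matches in the levels of both genes was not tested. The sequences are RefSeq's for the build GRCm38.p6, which is not the build of the counts, and each covers bases 180 to 91 upstream of the start site, 5′ to 3′ along the gene. Both genes lie on the minus strand, Tnc at chr4:64047106-64047195 and Thbs2 at chr17:14694353-14694442. Capitals mark TATAAA, which in Thbs2 is read on the opposite strand, and in Tnc also GGGCGG, a GC box.
Tnc: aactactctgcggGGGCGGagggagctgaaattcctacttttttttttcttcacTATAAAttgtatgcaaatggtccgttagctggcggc
Thbs2: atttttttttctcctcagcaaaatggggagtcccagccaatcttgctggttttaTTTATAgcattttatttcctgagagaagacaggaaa

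In both stretches the upstream edge of the match lies 126 bases before the start, but in Thbs2 TATAAA is read from the other edge. The promoter table held 7 of the 10 genes with 9 start sites, since Tnc and Spp1 have 2 each. In the 250 bases before the start, searched on both strands, TATAAA was found at 4 of these 9 start sites against 12.4% of 32851 promoters, and GGGCGG at 5 against 32.7%. CANGTG, the E-box core that MITF and other factors read, was found at 2 (Spp1 and Thbs2) against 39.5%. TGANTCA, an AP-1 element, was found at 0 against 6.75%, and GGAATG, a TEAD element, at 0 against 12.6%. The windows of the 2 Tnc start sites overlap, so their matches are the same bases. From the other start the TATAAA match lies 205 bases upstream and the GGGCGG match 246.

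Thrombospondin 2, a matricellular protein that restrains vessel growth (Thbs2, ENSMUSG00000023885, GRCm39 chr17:14885762-14914497), was at 4.12, 5.92, 5.54 and 6.79 CPM in CONTROL_IT. It was at 29.1, 14.2, 255 and 18.99 CPM in MIX_IT and at 29.6, 49.6, 35.6 and 8.80 CPM in NCTD_IT. All 8 of these treated tumors were above the controls, and MIX_IT 23 was far above the rest. The Thbs2 log2 change was 3.82 in MIX_IT (SE 0.892, edgeR adjusted p = 0.122) and 1.87 without MIX_IT 23. In NCTD_IT it was 2.46 (SE 0.871, edgeR adjusted p = 0.121). PTX_IT held 13.9, 30.3 and 3.85 CPM of Thbs2, overlapping the controls, with a log2 change of 1.49 (SE 0.928), or 0.66 without PTX_IT 15. In NCTD_IT the sign turned with fibroblast markers as a covariate (-0.28), and in PTX_IT with those (-0.61) and with Xist (-0.67).

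Thrombospondin 1, an activator of latent TGF-beta that platelets and macrophages also release (Thbs1, ENSMUSG00000040152, GRCm39 chr2:117942357-117957614), followed another pattern. CONTROL_IT held 9.53, 50.6, 21.4 and 43.8 CPM and NCTD_IT 53.5, 246, 34.2 and 67.2 CPM, so the groups overlapped. The Thbs1 log2 change in NCTD_IT was 1.67 (SE 0.572, edgeR adjusted p = 0.111) and 0.72 without NCTD_IT 18, the tumor with the high neutrophil markers. In MIX_IT Thbs1 was at 24.6, 71.6, 30.8 and 29.1 CPM, so that MIX_IT 22 alone was above the control range, with a log2 change of 0.31 (SE 0.563).

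Osteopontin, a ligand of integrins and CD44 that macrophages make (Spp1, ENSMUSG00000029304, GRCm39 chr5:104582984-104588916), was at 17.8, 67.7, 43.6 and 37.3 CPM in CONTROL_IT. NCTD_IT held 94.8, 232, 37.7 and 105 CPM, and MIX_IT held 71.3, 77.4, 85.7 and 76.5 CPM. Spp1 thus varied widely in NCTD_IT and little in MIX_IT, whose 4 tumors all lay above CONTROL_IT. The Spp1 log2 change was 1.49 in NCTD_IT (SE 0.452, edgeR adjusted p = 0.0780), or 0.93 without NCTD_IT 18, and 0.89 in MIX_IT (SE 0.447, edgeR adjusted p = 0.412).

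Sparc, which binds collagen and was the member with the narrowest spread in IT tumors (ENSMUSG00000018593, GRCm39 chr11:55285326-55314009), differed least. It ranged from 754 to 970 CPM in CONTROL_IT, 725 to 981 CPM in PTX_IT, 623 to 1068 CPM in NCTD_IT and 801 to 1331 CPM in MIX_IT. The Sparc log2 changes were 0.08, -0.09 and 0.19, with SE of 0.222, 0.206 and 0.206, and the sign in NCTD_IT and in MIX_IT turned when single tumors were left out.

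Fibronectin, the fibril-forming ligand of many integrins (Fn1, ENSMUSG00000026193, GRCm39 chr1:71624679-71692359), was at 27.0, 69.7, 53.9 and 73.0 CPM in CONTROL_IT. In MIX_IT it was at 73.6, 152, 184 and 185 CPM and in NCTD_IT at 81.0, 296, 76.8 and 77.9 CPM. Neither group overlapped the controls, but 3 NCTD_IT tumors and MIX_IT 21 lay between 73.6 and 81.0 CPM, close above the highest control. The Fn1 log2 change was 1.40 in MIX_IT (SE 0.443, edgeR adjusted p = 0.197). In NCTD_IT it was 1.25 (SE 0.442, edgeR adjusted p = 0.121), and 0.49 without NCTD_IT 18.

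Fibrillin 1, the core of microfibrils (Fbn1, ENSMUSG00000027204, GRCm39 chr2:125142514-125349913), was at 2.06, 3.72, 6.05 and 5.38 CPM in CONTROL_IT and at 10.3, 9.37, 25.7 and 6.66 CPM in MIX_IT. Every MIX_IT tumor was above the controls, MIX_IT 24 by little. The Fbn1 log2 change was 1.58 in MIX_IT (SE 0.504, edgeR adjusted p = 0.203) and 1.01 without MIX_IT 23. In NCTD_IT Fbn1 ranged from 5.87 to 10.4 CPM, with a log2 change of 0.92 (SE 0.509).

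Biglycan, a small proteoglycan that binds collagen and Toll-like receptors (Bgn, ENSMUSG00000031375, GRCm39 chrX:72527208-72539539), is X-linked. It was at 6.69, 15.8, 9.07 and 21.8 CPM in CONTROL_IT and at 30.0, 25.4, 106 and 34.0 CPM in MIX_IT, 2 groups with the same pattern of Xist and Ddx3y. The MIX_IT tumors were all above the controls. The Bgn log2 change was 1.87 (SE 0.533, edgeR adjusted p = 0.181) and 1.15 without MIX_IT 23. NCTD_IT held 15.7 to 36.1 CPM of Bgn, with a log2 change of 1.02 (SE 0.531), and PTX_IT 8.22 to 43.5 CPM, with 1.02 (SE 0.566), or 0.49 without PTX_IT 13. Both signs turned with Xist as a covariate, to -1.31 in NCTD_IT and -1.21 in PTX_IT, and with fibroblast markers as a covariate, to -0.49 and -0.12.

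Versican, a large hyaluronan-binding proteoglycan (Vcan, ENSMUSG00000021614, GRCm39 chr13:89803431-89890628), had the lowest counts of the 10, from 2 to 55 reads per tumor. It was at 1.29, 2.41, 1.01 and 6.79 CPM in CONTROL_IT, 8.00, 13.5, 2.07 and 1.60 CPM in NCTD_IT, 5.78, 8.58, 11.9 and 4.83 CPM in MIX_IT, and 0.645 to 2.05 CPM in PTX_IT. CONTROL_IT 12 overlapped with MIX_IT, and PTX_IT was the lowest group. The Vcan log2 changes were 1.14 in NCTD_IT (SE 0.703), 1.43 in MIX_IT (SE 0.699) and -0.93 in PTX_IT (SE 0.833), none at an unadjusted p below 0.05 in edgeR. Single tumors moved them: without CONTROL_IT 12 they were 1.99, 2.28 and -0.10, without NCTD_IT 18 the first was 0.49, and without PTX_IT 15 the last was -0.60.

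Lysyl oxidase, the amine oxidase that starts the cross-linking of collagen and elastin (Lox, ENSMUSG00000024529), was at 1.29, 4.16, 4.79 and 7.92 CPM in CONTROL_IT. MIX_IT held 9.63, 8.27, 27.7 and 12.0 CPM, all above the controls, and NCTD_IT held 6.43, 23.5, 6.22 and 4.27 CPM, which overlapped them. The Lox log2 change was 1.65 in MIX_IT (SE 0.615, edgeR adjusted p = 0.271). In NCTD_IT it was 1.15 (SE 0.619), and 0.32 without NCTD_IT 18.

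**Figure D2:**
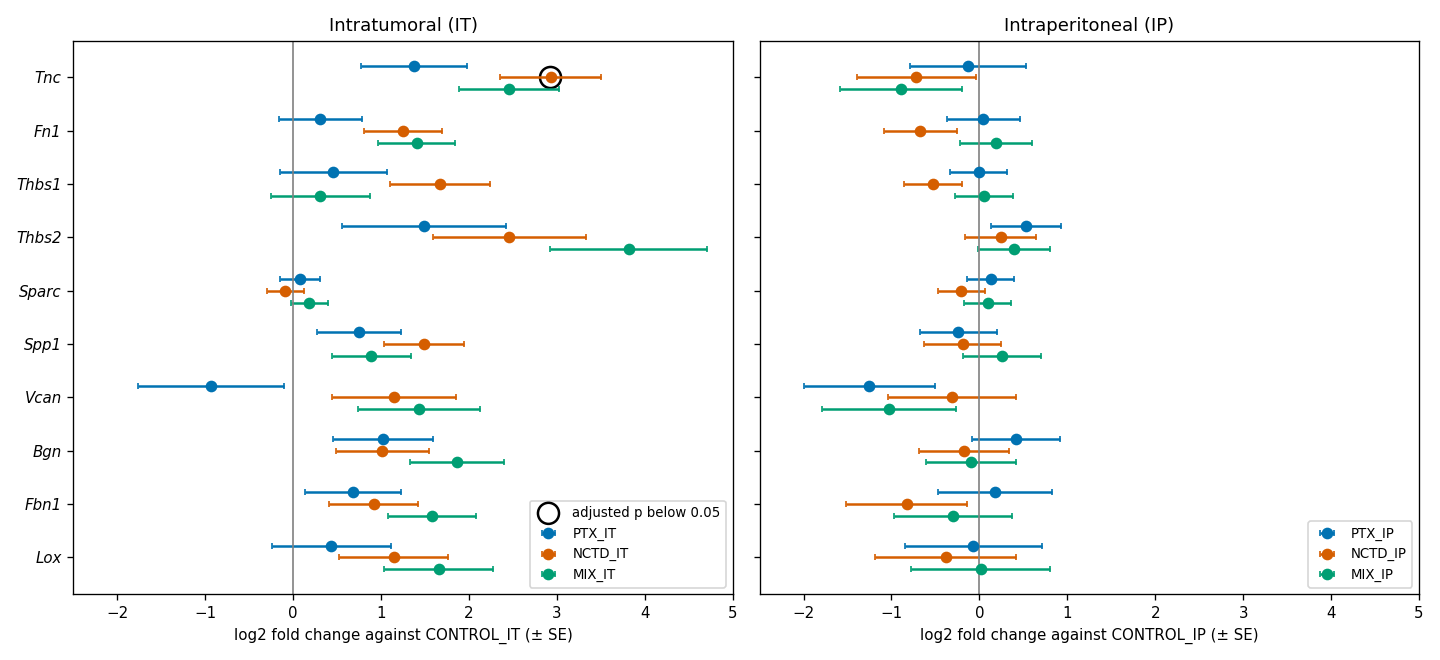
Log2 fold change of each gene against the control of its route (points, with the SE as whiskers) for PTX, NCTD and MIX, IT on the left and IP on the right. The ring marks an adjusted p below 0.05, which Tnc reached in NCTD_IT at a log2 change of 2.93.

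In PTX_IT the other genes lay close to the controls or overlapped them. Fn1 was at 86.4, 72.2 and 50.3 CPM, Thbs1 at 39.3 to 48.7 CPM, Spp1 at 37.8 to 101 CPM, Fbn1 at 2.57 to 10.3 CPM and Lox at 2.83 to 9.67 CPM. PTX_IT 16 was the lowest of its group for 7 of these 10 genes, and it had the lowest fibroblast marker sum of the group, 24.1 CPM.

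Given by the IP route, the same drugs at the same doses gave 0 of 10 genes past either threshold. The share of all genes past the adjusted threshold was 0% in PTX_IP, NCTD_IP and MIX_IP, and the share at an unadjusted p below 0.05 was 5.30%, 3.59% and 2.94%. DESeq2 called 0 members in each, with 0, 0 and 1 at an unadjusted p below 0.05. The log2 changes of the 10 genes ran from -1.25 (Vcan in PTX_IP, SE 0.744) to 0.54 (Thbs2 in PTX_IP, SE 0.398). The spread within pairs was wide. In NCTD_IP, NCTD_IP 5 was below NCTD_IP 6 for all 10 genes, with Fbn1 at 1.68 and 11.7 CPM, Lox at 1.68 and 11.9 CPM, Bgn at 10.1 and 35.8 CPM and Spp1 at 30.5 and 92.2 CPM. Fn1 was at 126 and 75.3 CPM in CONTROL_IP and 153 and 74.3 CPM in MIX_IP, and Thbs2 at 13.8 and 7.81 CPM and 15.7 and 12.3 CPM. Combining the groups as 4 tumors with a drug against 4 without gave 0 of 10 for PTX, against 0% adjusted and 3.28% unadjusted, and 0 of 10 for NCTD, against 0% and 2.84%. For Tnc the log2 changes were -0.13, -0.72 and -0.89 in PTX_IP, NCTD_IP and MIX_IP, with SE of 0.658, 0.680 and 0.690, so that changes of that size were not detectable with 2 tumors a group.

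The difference between the routes was tested in a model of all 23 tumors. The change with NCTD was larger by IT than by IP at an unadjusted p below 0.05 for 4 of 10 genes (Tnc, Fn1, Thbs1 and Spp1) against 10.8% of all genes, and 0 passed adjustment, as did 0% of all genes. For Tnc the difference in log2 change was 3.65 (SE 1.02, edgeR adjusted p = 0.294), and ran from 2.83 without NCTD_IP 5 to 5.78 without NCTD_IP 6. With MIX there were 5 of 10 (Tnc, Thbs2, Bgn, Vcan and Fbn1) against 7.44%, again 0 after adjustment against 0%, and for Tnc 3.36 (SE 1.02, edgeR adjusted p = 0.585). With PTX there were 0 of 10, against 5.23% unadjusted and 0% adjusted. DESeq2 called 0 in all of these, with 4, 5 and 0 at an unadjusted p below 0.05. The controls of the routes differed too. All CONTROL_IT tumors were below both of CONTROL_IP for Tnc, Thbs2, Bgn, Fbn1 and Fn1, while the controls overlapped for the other genes. The share of all genes with such controls was not computed.

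Averaged over drugs, 1 gene differed by route at an unadjusted p below 0.05 against 14.4% of all genes, and 0 after adjustment against 0.739%. This was Sparc, lower in IT by 0.42 on the log2 scale (log2 difference -0.42, SE 0.126, edgeR adjusted p = 0.122). DESeq2 called 0, with 2 at an unadjusted p below 0.05.

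The combination was set against each of its drugs within IT. Between MIX_IT and NCTD_IT 1 gene differed at an unadjusted p below 0.05, against 6.02% of all genes, and 0 after adjustment, against 0.00801%. It was Thbs1, with a log2 difference of -1.36 in MIX_IT (SE 0.563, edgeR adjusted p = 0.803), and -0.41 without NCTD_IT 18. With Xist as a covariate its sign turned, to 0.78, and these groups differ in sex-linked RNA. Between MIX_IT and PTX_IT 3 genes were higher in MIX_IT, against 3.75%, and 0 after adjustment, against 0%. They were Vcan at 2.36 (SE 0.830), Thbs2 at 2.33 (SE 0.913), which was 0.38 without MIX_IT 23, and Fn1 at 1.09 (SE 0.483).

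The departure of MIX_IT from the sum of its drugs on the log2 scale reached an unadjusted p below 0.05 for 2 of 10 genes, against 11.3% of all genes, and 0 after adjustment, against 0.0401%. For Tnc it was -1.85 (SE 0.794, edgeR adjusted p = 0.420) and for Thbs1 -1.82 (SE 0.824, edgeR adjusted p = 0.437), each below additivity. The Thbs1 value was -0.87 without NCTD_IT 18. Both signs turned with Xist as a covariate, to 1.30 and 1.68. DESeq2 called 0 in these 3 comparisons, with 1, 3 and 3 at an unadjusted p below 0.05.

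Other measures moved with the matrix genes in the IT groups. The 8 fibroblast markers checked (Pdgfra, Pdgfrb, Dcn, Lum, Dpt, Fap, Thy1 and Pi16) summed to 7.47 to 32.0 CPM in CONTROL_IT, 24.1 to 88.6 in PTX_IT, 54.9 to 127 in NCTD_IT and 48.5 to 282 in MIX_IT, with the highest in MIX_IT 23. The IP tumors held 29.2 to 135 CPM. Of these markers 4 could be tested, and 4 of 4 were higher in NCTD_IT and in MIX_IT, 3 in each at an unadjusted p below 0.05. None was at 0 in all tumors. In single tumors several were at or below 3 counts, 6 of 8 in CONTROL_IT 9 and 4 of 8 in NCTD_IT 19, so the sum rests on few genes there. Endothelial markers summed to 32.7 to 58.3 CPM in CONTROL_IT, 51.9 to 76.4 in PTX_IT, 73.6 to 139 in NCTD_IT and 59.3 to 213 in MIX_IT. Of these 6 markers 4 could be tested, and 4 were higher in each drug group. At an unadjusted p below 0.05 there were 0 in PTX_IT, 4 in NCTD_IT and 3 in MIX_IT, and 1 passed adjustment, in NCTD_IT. Of 5 neutrophil markers 3 could be tested, and 3 were higher in each. At those thresholds there were 1, 3 and 0 unadjusted, and 2 passed adjustment, in NCTD_IT. The share of mitochondrial reads was 2.42 to 2.68% in CONTROL_IT, 2.97 to 3.86% in PTX_IT, 2.47 to 6.32% in NCTD_IT and 3.57 to 5.73% in MIX_IT. Malat1, a nuclear RNA, was at 76.3 to 96.5 CPM in CONTROL_IT, 74.2 to 424 in PTX_IT, 279 to 693 in NCTD_IT and 156 to 498 in MIX_IT. Macrophage markers summed to 86.5 to 601 CPM in CONTROL_IT, 92.0 to 1156 in PTX_IT, 350 to 1236 in NCTD_IT and 211 to 644 in MIX_IT. Of these 8 markers 8 were higher in NCTD_IT and in PTX_IT, 3 in each at an unadjusted p below 0.05, and 7 in MIX_IT, 1 at that threshold. Adipocyte markers summed to 68.6 to 85.2 CPM in CONTROL_IT, 85.5 to 169 in PTX_IT, 135 to 292 in NCTD_IT and 76.1 to 520 in MIX_IT. Of these 4 markers 1 could be tested, and 3 had no count in MIX_IT 23, which held the highest sum, so this sum rests on few genes. The part of the endothelial, neutrophil, macrophage, adipocyte, mitochondrial and Malat1 values in the changes of the 10 genes was not tested.

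With the log2 fibroblast sum as a covariate in the IT model, 0 of 10 genes were called in NCTD_IT and 1 was at an unadjusted p below 0.05, Tnc. The Tnc log2 change was then 1.23 (SE 0.440, edgeR adjusted p = 0.970), against 2.93 without the covariate. In MIX_IT 0 genes were at an unadjusted p below 0.05, and Tnc was at 0.51 (SE 0.439). The slope within IT groups, in log2 units for each log2 unit of the sum, was 0.84 for Tnc (SE 0.144), 1.33 for Thbs2 (SE 0.179), 0.78 for Bgn (SE 0.144), 0.87 for Lox (SE 0.189) and 0.73 for Fbn1 (SE 0.146). For Sparc the slope was 0.17 (SE 0.0807), and for Thbs1 0.35 (SE 0.279). The fibroblast sum did not overlap between CONTROL_IT and NCTD_IT or MIX_IT, so drug and sum are poorly told apart in this fit. Dcn, 1 of the markers, is itself a matrix proteoglycan and averaged 37.7 CPM in NCTD_IT, where the sum averaged 85.1 CPM. In MIX_IT these means were 68.5 and 121 CPM. The share of all genes passing was not computed in this fit.

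With log2 Xist as a covariate, 0 of 10 genes were at an unadjusted p below 0.05 in NCTD_IT and the Tnc log2 change was 1.42 (SE 1.18, edgeR adjusted p = 0.853). The sign turned for 6 genes in that fit, with log2 changes of -0.56 for Fn1, -0.19 for Thbs1, -0.85 for Spp1, -1.31 for Bgn, -0.72 for Fbn1 and -1.62 for Lox. In MIX_IT, where Xist matched the controls, the Tnc change was 2.66 (SE 0.571, edgeR adjusted p = 0.0502). Xist separates NCTD_IT and PTX_IT from CONTROL_IT, and the SE in NCTD_IT went from 0.575 to 1.18 with it. The share of all genes passing was not computed with Xist as a covariate, so the counts here have no background.

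**Figure D3:**
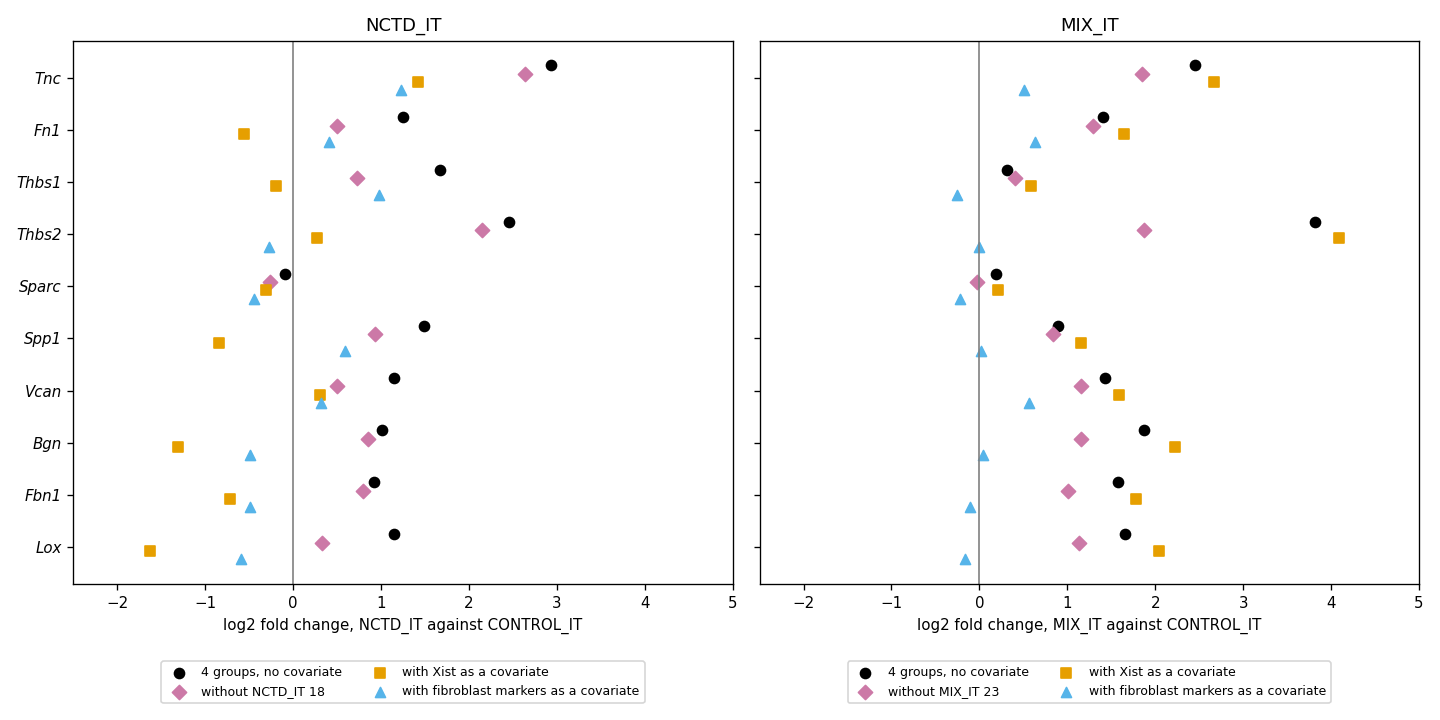
Log2 fold change of each gene in NCTD_IT (left) and MIX_IT (right) against CONTROL_IT in 4 fits: as reported, without the tumor that stood apart, with log2 Xist as a covariate, and with the log2 sum of fibroblast markers as a covariate. For Tnc in NCTD_IT the points run from 2.93 down to 1.23, while Thbs2 in MIX_IT lies at 3.82, and at 1.87 without MIX_IT 23.

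Across all 23 tumors, log2 Tnc followed the log2 fibroblast sum with Pearson's r = 0.84 and Spearman's rho = 0.86 (100000 permutations, p = 1e-05 for each, the smallest they can give, Benjamini-Hochberg adjusted 5e-05 and 6.67e-05). It was 0.81 without the 2 tumors farthest from the median sum, 0.85 after group means were removed, 0.86 within the 8 IP and 0.91 within the 15 IT tumors. The family held 20 such relations, of the 10 genes with fibroblast and with macrophage markers. Bgn (r = 0.88), Thbs2 (0.84), Fbn1 (0.83), Lox (0.81) and Fn1 (0.72) also followed the fibroblast sum, and all 5 stayed above 0.55 without the 2 farthest tumors. Spp1 passed adjustment too (r = 0.65, permutation p = 0.00105, adjusted 0.00262), at 0.52 without them, and Vcan (r = 0.49, permutation p = 0.0164, adjusted 0.0328), at 0.33. Sparc did not pass adjustment (r = 0.37, permutation p = 0.0781, adjusted 0.0977), nor did Thbs1 (r = 0.45, permutation p = 0.0350, adjusted 0.0583). Of the 10 genes Spp1 had the highest r with the macrophage sum, with r = 0.70 and rho = 0.69 (permutation p = 0.000290 and 0.000610, adjusted 0.000829 and 0.00203), and 0.55 without the 2 farthest tumors. Bgn (r = 0.50, permutation p = 0.0159, adjusted 0.0328) and Thbs1 (r = 0.48, permutation p = 0.0212, adjusted 0.0386) also passed with that sum, at 0.19 and 0.40 without those tumors.

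**Figure D4:**
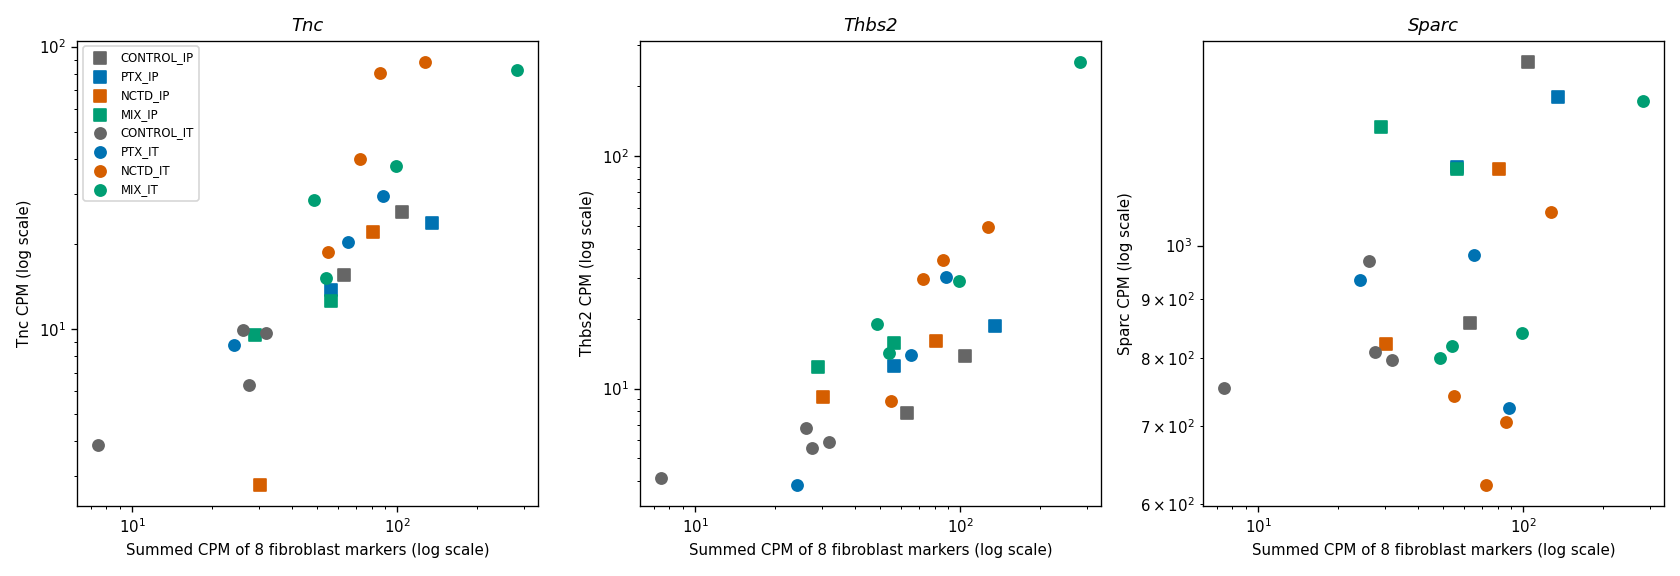
CPM of Tnc, Thbs2 and Sparc against the summed CPM of 8 fibroblast markers in each of the 23 tumors (log scales on both axes, squares for IP, circles for IT). Tnc and Thbs2 rise along the axis (r = 0.84 for both), with CONTROL_IT at the lower left and MIX_IT 23 at the right, while Sparc scatters (r = 0.37).

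Among themselves, the 10 genes formed 45 pairs, with Pearson's r of log2 CPM from 0.07 to 0.87 and a median of 0.62. The share of pairs past an adjusted permutation p of 0.05 was 36 of 45 by Pearson and 27 of 45 by Spearman. Bgn, Fbn1 and Lox were the tightest trio, with r = 0.87 for Bgn and Fbn1, 0.86 for Bgn and Lox and 0.85 for Fbn1 and Lox (permutation p = 1e-05 for each, adjusted 7.5e-05). These 3 values stayed at 0.75 to 0.79 without the 2 farthest tumors and at 0.83 to 0.84 after group means were removed.

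Tnc was closest to Thbs2, with r = 0.84 and rho = 0.89 (permutation p = 1e-05 for each, adjusted 7.5e-05 and 0.000225), 0.88 without the 2 farthest tumors, 0.56 within IP and 0.90 within IT. Fn1 was closest to Lox (r = 0.85, rho = 0.71, permutation p = 1e-05 and 0.000310). Thbs1 went with Spp1 (r = 0.73, rho = 0.41, permutation p = 0.000290 and 0.0524) and Fn1 (r = 0.67, rho = 0.36, permutation p = 0.000670 and 0.0929), but without the 2 farthest tumors r was 0.36 and 0.28, so the relations over all tumors rest on those tumors. After group means were removed r was 0.70 with Spp1 and 0.80 with Fn1, and within the 8 IP tumors it was 0.48 and 0.97. Thbs1 and Sparc had the lowest r over all tumors (r = 0.07, rho = -0.10, permutation p = 0.745 and 0.657, adjusted 0.745 and 0.704). Sparc differed in level between routes, and for that pair r was 0.85 within IP, 0.18 within IT and 0.45 after group means were removed. Within IP the r of Sparc was 0.81 with Thbs2, 0.82 with Lox and 0.76 with Fbn1.

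**Figure D5:**
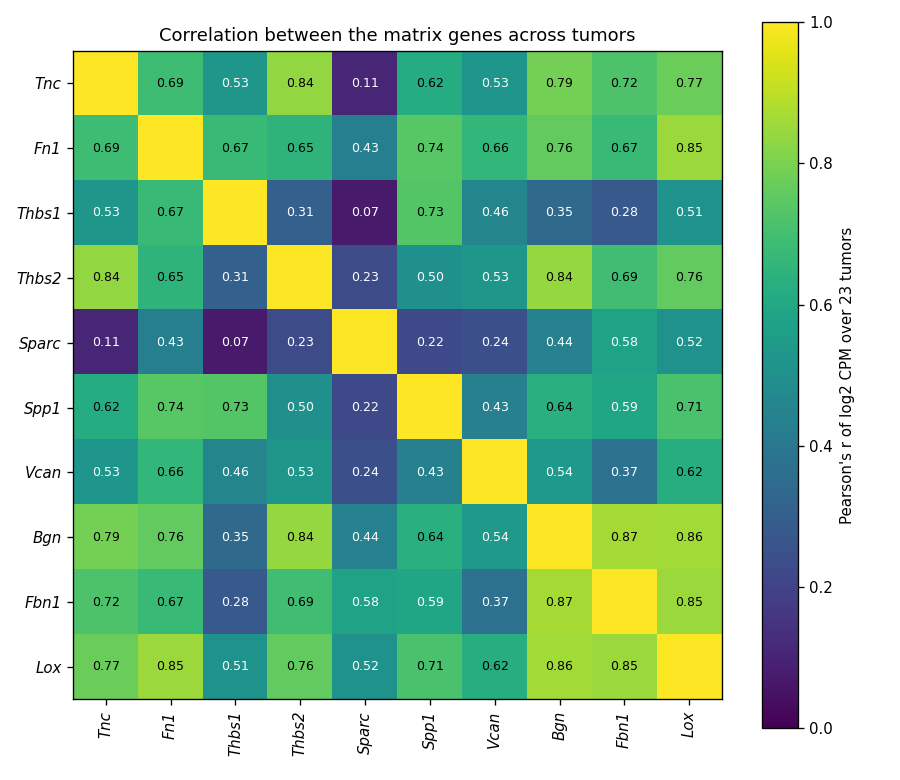
Pearson's r of log2 CPM over 23 tumors for each of the 45 pairs of genes, printed in the cells and coloured from 0 to 1. Bgn, Fbn1 and Lox form a bright block (0.85 to 0.87), and the rows of Thbs1 and Sparc are dark, down to 0.07.

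Of all 13395 genes tested in the 23 tumors, those most like Tnc by Pearson's r of log2 CPM were Prrx1, a mesenchymal transcription factor (r = 0.89, rho = 0.92), and the collagen genes Col5a3 (r = 0.87, rho = 0.86) and Col1a2 (r = 0.87, rho = 0.91). The closest gene to Thbs2 was Col1a2 (r = 0.93) and to Bgn Col5a2 (r = 0.91), both fibrillar collagens. The closest to Thbs1 was Il1b, a cytokine of myeloid cells (r = 0.88, rho = 0.64). NCTD_IT 18 held the highest Thbs1, 246 CPM, and r without it was not computed. The closest to Spp1 was Nfat5, a transcription factor of the osmotic stress response (r = 0.89, rho = 0.83). Sparc was closest to Mgat5, a glycosyltransferase (r = 0.77, rho = 0.80), and Vcan to Col15a1 (r = 0.74, rho = 0.62). Fbn1 and Lox were each closest to Bgn (r = 0.87 and 0.86). These genes were picked for their r, so no test was made, and all share the scaling of the libraries.

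Other genes of the same system were counted from lists of its parts. Of 12 collagen genes tested, 6 were higher in NCTD_IT and 9 in MIX_IT at an unadjusted p below 0.05, where 11.6% and 7.88% of all genes were higher, and 0 passed adjustment. Their median log2 changes were 1.41 and 2.53. Without NCTD_IT 18 the count in NCTD_IT was 1, with 9.11% of all genes higher and a median of 1.04. Without MIX_IT 23 the count in MIX_IT was 7, with 4.9% of all genes higher and a median of 1.33. Col1a1, a chain of type I collagen, averaged 141 ± 62.8 CPM in CONTROL_IT and 574 ± 329 CPM in NCTD_IT, with a log2 change of 2.02 (SE 0.706, edgeR adjusted p = 0.118). In MIX_IT Col1a1 ranged from 271 to 4664 CPM, with a log2 change of 3.52 (SE 0.749, edgeR adjusted p = 0.122), and 2.10 without MIX_IT 23. In PTX_IT 0 collagens passed either threshold, 12 of 12 had a positive log2 change and their median was 1.01.

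Of 13 proteases and inhibitors tested, 2 were higher and 1 lower in NCTD_IT after adjustment, against 1.37% of all genes. In MIX_IT 0 passed, as did 0% of all genes. Mmp3, stromelysin 1, was at 0.515 to 4.03 CPM in CONTROL_IT and 9.07 to 44.1 CPM in NCTD_IT, with a log2 change of 3.38 (SE 0.652, edgeR adjusted p = 0.0280). Mmp9, gelatinase B, a protease of neutrophils and macrophages, was at 0.219 to 0.756 CPM in CONTROL_IT, at the floor of these counts, and 5.87 to 33.2 CPM in NCTD_IT (edgeR adjusted p = 0.0280). Mmp14, a membrane protease, was lower, with 123 to 210 CPM against 267 to 385 CPM and a log2 change of -0.92 (SE 0.214, edgeR adjusted p = 0.0482). Without NCTD_IT 18 the log2 change was 2.94 for Mmp3 and -0.95 for Mmp14. In MIX_IT Mmp3 was at 7.49 to 43.2 CPM (edgeR adjusted p = 0.121) and Mmp9 at 4.06 to 34.5 CPM (edgeR adjusted p = 0.104).

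Of 29 other glycoproteins tested, 6 were higher and 1 lower in NCTD_IT and 5 higher in MIX_IT at an unadjusted p below 0.05, 0 after adjustment. In either direction 21.6% of all genes passed in NCTD_IT and 13% in MIX_IT, near the share of these glycoproteins. In the higher direction alone 11.6% and 7.88% of all genes passed, less than the share of these glycoproteins. Without NCTD_IT 18, 4 of 28 were higher and 2 lower in NCTD_IT, with 9.11% of all genes higher. Without MIX_IT 23, 4 of 29 were higher and 1 lower in MIX_IT, with 4.9% of all genes higher. Lamc1, a laminin chain, had a log2 change of 0.70 in NCTD_IT (SE 0.181, edgeR adjusted p = 0.0565), and Nid1, which links laminin to collagen IV, 1.12 (SE 0.336, edgeR adjusted p = 0.0754). In MIX_IT Ccn4 had 3.37 (SE 0.764) and Postn, periostin, 3.04 (SE 0.696), each at an edgeR adjusted p of 0.122. Postn was at 1.91 without MIX_IT 23. Of 9 other proteoglycans 3 were higher and 1 lower in each group, and 1 was higher in MIX_IT without MIX_IT 23. Dcn, decorin, also a fibroblast marker above, had 2.66 in NCTD_IT (SE 0.835) and 3.53 in MIX_IT (SE 0.848), and Hspg2, perlecan, 1.30 (SE 0.428) and 1.37 (SE 0.428).

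Enzymes, receptors and signalling genes passed an unadjusted p below 0.05 in both directions or in small numbers, and their counts are to be read against the 21.6% of all genes in NCTD_IT and 13% in MIX_IT that passed in either direction. Of 15 cross-linking and processing enzymes 2 were higher and 2 lower in NCTD_IT, where Pcolce was at -0.49 (SE 0.179) and Loxl2 at -0.81 (SE 0.316), and 4 higher and 1 lower in MIX_IT, where Adamts2 was at 1.35 (SE 0.508) and Bmp1 at 0.78 (SE 0.321). Of 15 receptors 3 were higher in NCTD_IT, with Cd44, a hyaluronan and osteopontin receptor, at 0.40 (SE 0.140) and Cd47, a thrombospondin receptor, at 0.85 (SE 0.392), and 1 in MIX_IT, Cd44 at 0.34 (SE 0.140). Of 13 genes of TGF-beta, YAP and SRF signalling 1 was higher and 2 lower in NCTD_IT and 1 higher and 3 lower in MIX_IT, where Srf was at -1.91 (SE 0.747) and Smad4 at -0.57 (SE 0.230). Without NCTD_IT 18, 0 enzymes were higher and 2 lower in NCTD_IT, and without MIX_IT 23, 0 enzymes were higher or lower, 0 receptors were higher and 0 signalling genes were higher and 1 lower in MIX_IT. None of the genes in these 3 lists passed adjustment in either comparison by edgeR.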

How the data were processed

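RNA of 23 tumors was sequenced from 3′ mRNA libraries. The authors trimmed reads with Trimmomatic, aligned them to GRCm39 and counted them per gene with STAR 2.7.11b, and deposited raw counts for 56748 genes. Strand setting, multi-mapping and molecular identifiers are not given in the sources used here, so overlapping genes may share reads. Groups came from the labels. Counts were tested in R 4.3.3 with edgeR 4.0.16 (filterByExpr, minimum count 10, minimum total 15; TMM; quasi-likelihood; two-sided; Benjamini-Hochberg over all genes) and DESeq2 1.42.0 as an alternative. SE is the log2 change divided by the root of F. Log2 CPM used a prior count of 2. A count of 3, the floor for counting error, is 0.448 to 1.05 CPM by tumor. Replicates are separate tumors per the labels. Tumors of a group differed by more than sampling noise (chi-square per degree of freedom 8.09 to 64.6). The tests were tested on simulated data. Correlations and their permutations were run in Python with NumPy. The 10 genes and the lists were chosen with earlier results of these data known. Named genes are the 10, those nearest by Pearson's r, and per list those past adjustment or the 2 with the smallest p. The fibroblast covariate and the list counts without single tumors were added after the data were seen. Alternatives are given in the closing section.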

Additional observations from a re-analysis of the deposited data

Results flagged for a closer look

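In 7 of 30 combinations of gene and IT group of 4 tumors, a single tumor lay farther from the others in CPM than Dixon's 95% limit allows. Chance flags about 1 in 20 for normally distributed values, which CPM, being skewed, are not. On log2 CPM, a scale added after the data were seen, 2 of the 7 stayed past the limit, Fn1 in NCTD_IT and Sparc in MIX_IT. NCTD_IT 18 was high for Fn1 (296 CPM, next 81.0), Thbs1 (246 CPM, next 67.2) and Lox (23.5 CPM, next 6.43). MIX_IT 23 was high for Thbs2 (255 CPM, next 29.1), Bgn (106 CPM, next 34.0) and Sparc (1331 CPM, next 842). MIX_IT 22 was high for Thbs1 (71.6 CPM, next 30.8). NCTD_IT 18 also had the highest neutrophil marker sum and MIX_IT 23 the highest fibroblast marker sum and the lowest melanocyte marker sum; their part in these values was not tested.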

How the results depend on the processing

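No paired analysis was possible because each tumor carries a replicate number of its own. DESeq2's size factors, protein-coding genes alone and all 23 tumors in a model changed no count of genes past a threshold by over 1.5 times and no direction of the log2 changes checked. Without a filter on low counts more of the 10 genes were called after adjustment. These were 2 in PTX_IT (4 unadjusted), 6 in NCTD_IT, 6 in MIX_IT, 2 in MIX_IT against NCTD_IT and 2 in MIX_IT against PTX_IT. There were also 3 for the departure from additivity, 4 by route, and 5 (NCTD) and 3 (MIX) for the difference between routes. The reported counts were 1 in NCTD_IT and 0 elsewhere. The share of all genes called without the filter was not computed, so these counts have no background, and the cause was not tested. DESeq2 gave 2 unadjusted in PTX_IT, 2 called in NCTD_IT and 3 in MIX_IT, and a model of only the 2 groups gave 2 unadjusted in PTX_IT and 2 called in NCTD_IT. The share of all genes was not computed for either.

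With Xist as a covariate 0 were at an unadjusted p below 0.05 in PTX_IT and 0 in NCTD_IT (0 called). Log2 changes that turned in NCTD_IT were Fn1 -0.56, Thbs1 -0.19, Spp1 -0.85, Bgn -1.31, Fbn1 -0.72 and Lox -1.62; in PTX_IT Tnc -0.054, Thbs2 -0.67 and Bgn -1.21; Thbs1 in MIX_IT against NCTD_IT 0.78; and for additivity Tnc 1.30 and Thbs1 1.68. With the fibroblast markers as a covariate, added after the data were seen, 0 were unadjusted in PTX_IT, 1 in NCTD_IT (0 called) and 0 in MIX_IT. There Thbs2 -0.28, Bgn -0.49, Fbn1 -0.49 and Lox -0.59 turned in NCTD_IT, and Thbs2 -0.61 and Bgn -0.12 in PTX_IT. In MIX_IT Thbs1 -0.26, Thbs2 -0.0012, Sparc -0.22, Fbn1 -0.11 and Lox -0.17 turned. The share of all genes past a threshold was not computed with either covariate.

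Leaving out each tumor in turn gave 0 to 2 unadjusted in PTX_IT, 0 to 1 called and 3 (without NCTD_IT 18) to 8 (without CONTROL_IT 12 or NCTD_IT 20) unadjusted in NCTD_IT, 5 to 7 unadjusted in MIX_IT, and 0 to 1 by route (1 without MIX_IT 23). Genes without overlap numbered 0 to 5 in PTX_IT and 3 to 5 in NCTD_IT (5 without NCTD_IT 19 or NCTD_IT 20). The share of all genes without overlap was not computed with a tumor left out. At an unadjusted p below 0.05 in edgeR, 17% of all genes passed in either direction in NCTD_IT without NCTD_IT 18. In MIX_IT without MIX_IT 23 that share was 8.33%. For other left-out tumors, and for adjusted p, the share was not computed. The log2 change of Sparc ranged from -0.27 to 0.023 in NCTD_IT and from -0.028 to 0.28 in MIX_IT, and that of Thbs1 in MIX_IT from -0.16 to 0.65. Depth limits Vcan most, with 2 to 55 reads per tumor.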
